A study of Mus musculus with 16 samples.

Results

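Nr1d1, Nr1d2, Per1 and Per3 are 4 genes of the circadian clock, and every probe set that carries the symbol of one of them alone was taken. Each gene had 1 such probe set (98507_at for Nr1d1, 99076_at for Nr1d2, 93619_at for Per1 and 102242_at for Per3), so that 4 of the 12488 probe sets on the array, or 4 of 8251 genes with a probe set of their own, are described here. All 4 passed the filter on low signal. The samples were retroperitoneal fat, the fat pad behind the abdominal cavity, of gonadectomised (GDX) mice, profiled on 16 single-colour Affymetrix arrays. In each sex, 2 arrays came from mice given vehicle and 1 array each from mice given 0.1 mg of dihydrotestosterone (DHT) under the skin at 6 times before necropsy (1, 3, 6, 12, 18 or 24 h earlier). DHT is the potent androgen made from testosterone, and all groups, the vehicle groups included, lack gonads. The age and strain of the mice are not given in the sources used here. The vehicle samples are labelled with 24 h, so that no other DHT time has a vehicle of its own. No clock time of injection or necropsy is given, and the times after injection were therefore read as such. Fat was gathered group by group, so that an array may hold several animals. In each sex 1 of the 2 vehicle arrays is labelled a replicate, and whether it stands for different animals is not stated. The p-values therefore reflect the scatter of these arrays, and that scatter may be technical.

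In the clock of mammalian cells, CLOCK and BMAL1 (the product of Arntl) switch on the Per and Cry genes, whose products then hold CLOCK and BMAL1 back. The nuclear receptors REV-ERBα (Nr1d1) and REV-ERBβ (Nr1d2) form a further loop: they are switched on by CLOCK and BMAL1 and repress Arntl. In fat, as in other peripheral tissues, transcripts of these genes swing over the day, and Nr1d1 also takes part in adipocyte differentiation. Per1 and some other clock genes can in addition be induced quickly by steroid hormones. Samples taken at different clock times can therefore differ in these transcripts without any treatment, which is why a series of times without vehicle arrays of their own raises the question of clock phase.

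The 250 bases before a start site of each gene are shown because the short elements through which clock proteins act differ between the genes. The sequences are those of RefSeq on GRCm38.p6, on the strand of the gene, with matches to the motifs in capitals. All 4 genes were matched by symbol, and the positions in order are chr11:98775378-98775627 (minus strand) for Nr1d1, chr14:18239107-18239356 (minus strand) for Nr1d2, chr11:69098699-69098948 (plus strand) for the upstream one of the 2 Per1 starts in the table, and chr4:151044666-151044915 (minus strand) for Per3.
Nr1d1: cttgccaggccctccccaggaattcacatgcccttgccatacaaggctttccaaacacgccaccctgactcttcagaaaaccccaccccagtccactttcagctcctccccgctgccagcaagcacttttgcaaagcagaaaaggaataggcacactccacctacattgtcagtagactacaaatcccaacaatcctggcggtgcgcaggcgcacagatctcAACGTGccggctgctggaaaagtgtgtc
Nr1d2: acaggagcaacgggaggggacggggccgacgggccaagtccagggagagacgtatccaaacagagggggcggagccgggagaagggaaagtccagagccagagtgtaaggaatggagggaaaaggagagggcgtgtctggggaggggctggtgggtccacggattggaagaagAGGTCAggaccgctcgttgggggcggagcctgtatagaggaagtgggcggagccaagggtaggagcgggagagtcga
Per1: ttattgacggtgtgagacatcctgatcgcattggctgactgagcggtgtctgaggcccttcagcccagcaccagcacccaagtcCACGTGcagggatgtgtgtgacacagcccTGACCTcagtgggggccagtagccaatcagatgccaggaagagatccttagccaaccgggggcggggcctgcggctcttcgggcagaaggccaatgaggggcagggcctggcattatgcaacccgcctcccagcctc
Per3: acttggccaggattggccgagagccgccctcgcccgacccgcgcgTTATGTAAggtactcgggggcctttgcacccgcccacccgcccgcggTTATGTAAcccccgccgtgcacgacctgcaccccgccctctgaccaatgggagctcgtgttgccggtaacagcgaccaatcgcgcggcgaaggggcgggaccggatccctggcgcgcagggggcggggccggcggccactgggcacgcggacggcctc
Motifs were searched on both strands. The E-box CACGTG, the element bound by CLOCK and BMAL1, was found in the Per1 window and in 6.02% of all 32851 windows of this length. A variant of it, CACGTT, stood in the Nr1d1 window, where it reads AACGTG on the strand shown (3.85% of windows). The D-box, TTATGTAA or TTACGTAA, which PAR bZIP factors such as DBP and TEF bind, occurred at 2 places in the Per3 window (0.931% of windows). AGGTCA, the core site of REV-ERB and ROR proteins, was present in the Nr1d2 window and, as TGACCT on the strand shown, in the Per1 window (14.0% of windows). Neither the cAMP response element TGACGTCA (1.55% of windows) nor the palindromic consensus element of androgen and glucocorticoid receptors (0.00913% of windows) matched any of the 5 windows of these genes, the second Per1 start included.

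Marker genes were looked at beside the tissue label. All 14 adipocyte markers measured were above the signal filter. Of 23 skeletal muscle genes 1 was under the filter, of 10 endothelium genes 0, and of 8 kidney genes 7. Passing the filter therefore does not by itself tell fat from other tissue. Every array had the same trimmed mean signal of 500, and array medians lay between 184 and 220. The second male vehicle array stood apart. Of 23 skeletal muscle genes, 22 were highest there, with a summed signal of 414727 against 43943 to 77212 on the other male arrays and 23232 to 57649 on the female arrays. On that array 13 of 14 adipocyte genes and 16 of 17 macrophage genes were at their lowest of the 16 arrays. The female array at 12 h also stood apart, since all 6 exocrine pancreas genes measured were highest there, with a summed signal of 84976 against 1227 to 7619 on the other arrays. The main results that moved without one of these arrays are therefore given with and without it. A further measure that varied was the level of 15 control probe sets that read the opposite strand, whose mean log2 signal was lowest at 6.13 on the female 3 h array and highest on the female 18 h array. The 3' to 5' ratio of control transcripts (log2) stayed between -0.19 and 0.10.

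Nr1d1 was lower in gonadectomised females than in gonadectomised males, and this was the one difference in any comparison of these 4 genes that passed the test on all 16 arrays. In males its signal was 1930 and 2059 on the vehicle arrays and 938, 1906, 1316, 1093, 1553 and 1983 at the DHT times in rising order. In females it was 1141 and 465 on the vehicle arrays and 469, 462, 351, 872, 976 and 812 at the same times. The male array was the higher one at each of the 6 DHT times, by between 1.25-fold (12 h) and 4.12-fold (3 h). The ranges nevertheless overlapped, because the first female vehicle array and the female array at 18 h were above the male array at 1 h. Over all 8 female and 8 male arrays the difference, female minus male on the scale of log2(signal + 16), was -1.24 ± 0.22 (SE), a 2.37-fold lower signal, with an adjusted p of 0.00694 (limma, 95% interval -1.73 to -0.757). Of all probe sets tested, 5.58% passed this comparison 4.59% with a higher and 0.993% with a lower level in females, so Nr1d1 was among the 74 lower ones of 7453. The difference was -1.22 without the second male vehicle array (adjusted p = 0.00298) and -1.38 without the female 12 h array (adjusted p = 0.00733). It was -1.14 with the control probe set level as a covariate (adjusted p = 0.0022, limma).

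**Figure D1:**
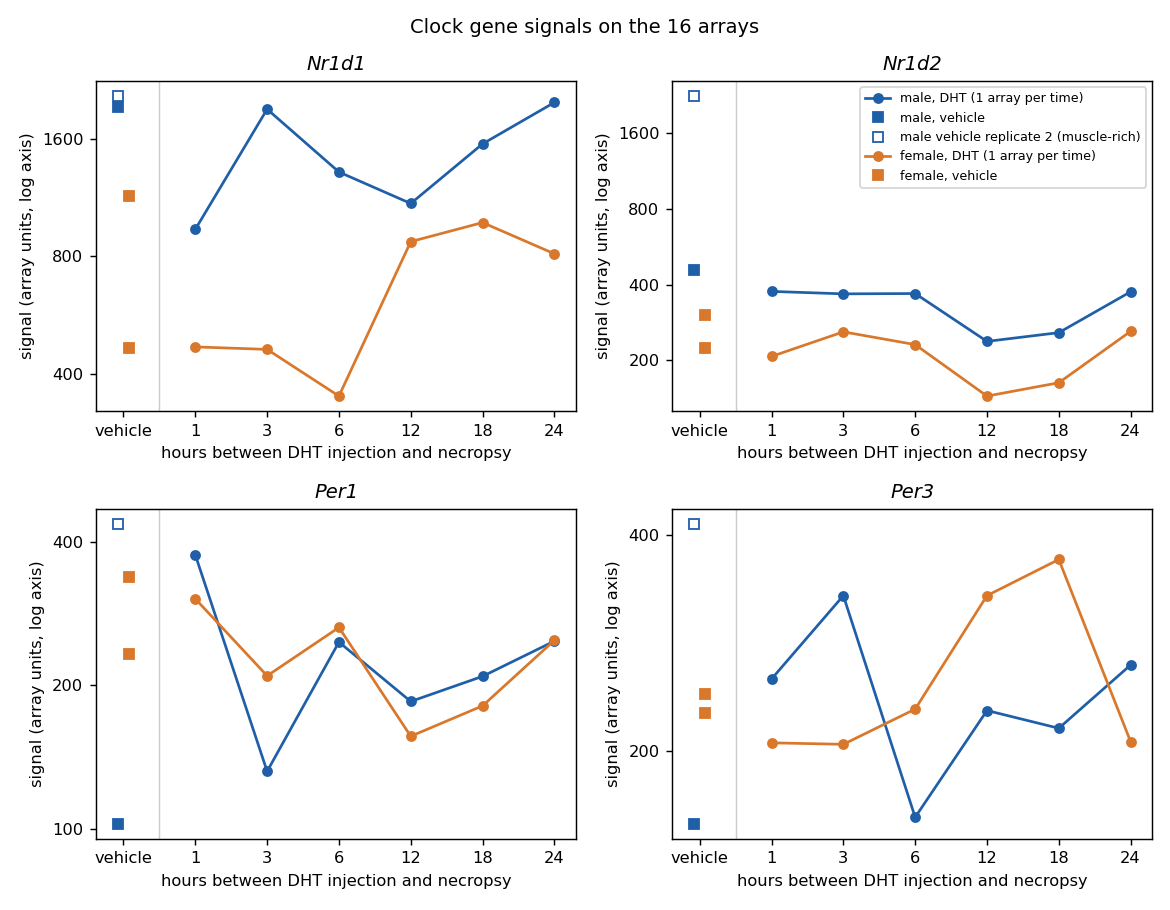
Signal of Nr1d1, Nr1d2, Per1 and Per3 (log axes, array units) on each of the 16 arrays, with vehicle arrays as squares at the left and DHT arrays as circles by hours after injection; the open square is the second male vehicle array, rich in muscle transcripts. The male line lies above the female line at all 6 times for Nr1d1 and Nr1d2, while for Per1 and Per3 the lines cross.

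Nr1d2, the second REV-ERB gene, was also higher in males at each DHT time, and whether it passed the test depended on 1 array. Its signal in males was 458 and 2252 on the vehicle arrays and 376, 368, 369, 238, 258 and 375 from 1 to 24 h. In females it was 223 and 303 on the vehicle arrays and 207, 260, 231, 144, 163 and 261 at the 6 times. At matched DHT times the male signal was 1.42- to 1.81-fold the female one, though the sexes overlapped when times were mixed. Over the 6 DHT arrays of each sex, all female values lay below all male values for 3.58% of probe sets and above them for 4.95%, and none of the 4 genes was among these. The value of 2252 on the muscle-rich array was 6.45-fold the mean of the other 7 male arrays. With all 16 arrays the female minus male difference was -0.94 ± 0.31 (SE) and did not pass (adjusted p = 0.105, limma). Without the muscle-rich array the standard error was smaller and the difference was -0.65 ± 0.11, with an adjusted p of 0.00193, in a comparison that 15.7% of probe sets then passed, 6.82% with a lower level in females. That is a 1.57-fold lower signal in females. Without the female 12 h array, and with the muscle-rich one, the difference was -0.98 (adjusted p = 0.169, limma).

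No difference between the sexes passed for the Period genes. Per1, which encodes a repressor of CLOCK and BMAL1, had signals in males of 103 and 436 on the vehicle arrays and 375, 132, 246, 185, 209 and 248 from 1 to 24 h. In females they were 232 and 337, then 303, 209, 264, 156, 181 and 248. Males were higher at 3 of 6 times, and the 2 arrays at 24 h were nearly equal. Per3, a Period family member that is less needed for the core rhythm, had signals in males of 159 and 414 on the vehicle arrays and 252, 329, 162, 228, 215 and 264 from 1 to 24 h. Its female signals were 240 and 226, then 205, 204, 229, 329, 369 and 206. Here too males were higher at 3 of 6 times, and the highest DHT array was at 3 h in males and at 18 h in females. The female minus male difference was 0.09 ± 0.25 (95% interval -0.45 to 0.63) for Per1 and 0.02 ± 0.21 (-0.446 to 0.488) for Per3, neither past the threshold (adjusted p = 0.894 and 0.977, limma). The differences were 0.24 and 0.15 without the muscle-rich array (adjusted p = 0.497 and 0.63, limma). Without the female 12 h array they were 0.13 for Per1 and -0.047 for Per3, so that the small Per3 value had the opposite sign.

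Markers of some cell types moved with sex on the same arrays. Leaving out the muscle-rich array, all 14 adipocyte genes were lower in females (median log2 difference -0.39), and their summed signal was 152995 to 200998 in males and 121401 to 150917 in females. All 17 macrophage genes were higher in females (median 0.46), with sums of 28168 to 36270 in males and 38497 to 51667 in females. All 7 brown adipocyte genes were lower in females, with sums of 4228 to 6446 and 1908 to 3152. Of these genes 3 were under the signal filter, as were 2 of the macrophage genes. Of 23 muscle genes 16 were lower in females (median -0.41). Endothelium, adrenal and kidney genes went both ways, with 3 of 10, 3 of 7 and 5 of 8 lower in females. Their medians were 0.10, 0.04 and -0.24. All 6 exocrine pancreas genes, 1 of them under the signal filter, were higher in females (median 1.03), with the pancreas-rich female 12 h array included. For adipocyte, macrophage and brown adipocyte markers the sums did not overlap between the sexes on these 15 arrays. By single gene this held for 4 of 14 adipocyte, 6 of 17 macrophage and 2 of 7 brown adipocyte genes. The shares of all probe sets for these counts are not given here. In such bulk tissue fewer cells of a type and less RNA per cell cannot be told apart, and the part of these markers in the Nr1d1 and Nr1d2 differences was not tested.

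The other clock genes give the setting for this difference. Of 32 further clock genes listed, 21 were on the array and 18 of them, with 27 probe sets, were tested. None of the 27 passed between the sexes with 16 arrays in limma (3 had an unadjusted p under 0.05), and their median difference of 0.02 equalled that of all probe sets. Arntl, the target repressed by the REV-ERB proteins, was 272 to 386 in males and 325 to 527 in females, a difference of 0.34 ± 0.12 that did not pass (adjusted p = 0.132, limma). Tef, a PAR bZIP output factor of the clock, differed by -0.72 ± 0.31 (adjusted p = 0.226, limma), with its highest signal of 3324 on the muscle-rich array. Without that array the Tef difference was -0.49 ± 0.21 (adjusted p = 0.151, limma). Clock (-0.13), Cry1 (0.17), Cry2 (-0.03), Bhlhe40 (0.12), Rora (0.02) and the 2 probe sets of Nfil3 (-0.10 and 0.08) were nearer to 0 with 16 arrays. Without the muscle-rich array they were at -0.18, 0.25, -0.06, 0.39, 0.37, -0.15 and 0.19 in the same order, and Arntl was at 0.32. Without the muscle-rich array 1 of 26 tested probe sets passed, in a comparison that 15.7% of all probe sets then passed. It was 99650_at of the casein kinase Csnk1a1 (0.32 ± 0.09, adjusted p = 0.0361, limma), while the other Csnk1a1 set, 93076_at, was at -0.00. Per2, Npas2 and Dbp were under the signal filter, Dbp with 6.47 to 193 on all arrays but the muscle-rich one, where it was 592.

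**Figure D2:**
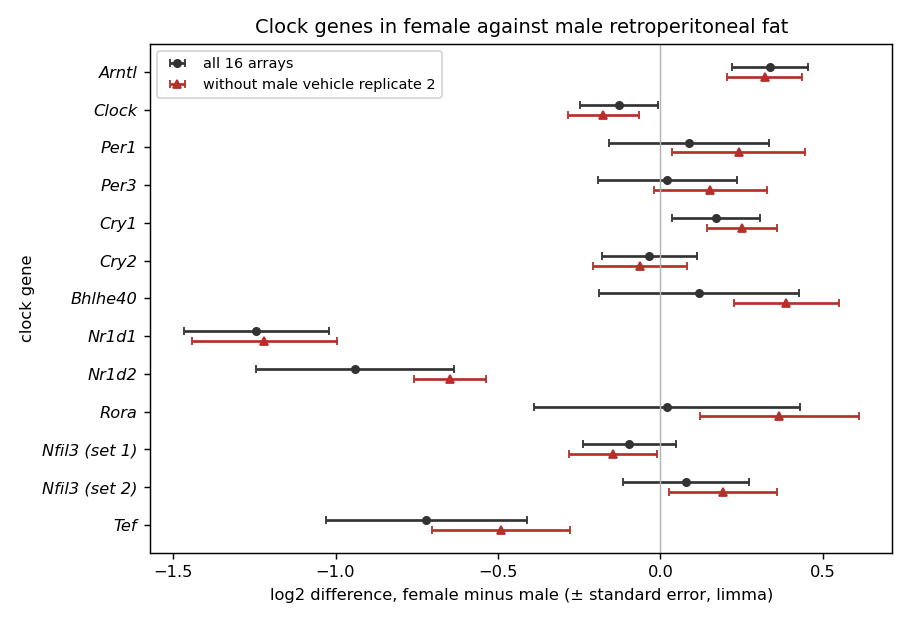
Difference in log2(signal + 16), female minus male, for the tested probe sets of the core clock, the second loop and Tef; points are limma estimates with standard errors, from all 16 arrays (circles) and without the second male vehicle array (triangles). Nr1d1 lies at -1.24 and Nr1d2 at -0.94 (-0.65 without that array); the other genes lie between -0.72 and 0.34 on 16 arrays.

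Neighbouring genes were looked at because Thra overlaps Nr1d1 in the RefSeq annotation and Uts2 overlaps Per3. The well-detected Thra probe set, 92348_at, had 1438 to 1984 on the 16 arrays and differed between the sexes by -0.17 ± 0.10 (adjusted p = 0.377, limma). Vamp2 (98926_at), on the chromosome of Per1, differed by -0.27 ± 0.15 (adjusted p = 0.37, limma). Thrb, on the chromosome of Nr1d2, was under the signal filter. A second Thra probe set, 99077_at, differed by 0.32 ± 0.22 (adjusted p = 0.497, limma), opposite in sign to the first. The 2 Thra differences were -0.18 and 0.47 without the muscle-rich array (adjusted p = 0.149 and 0.0874, limma).

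No change of these genes with DHT passed the test. Over all 6 times against the 4 vehicle arrays the log2 changes were -0.37 ± 0.26 for Nr1d1, -0.96 ± 0.35 for Nr1d2, -0.14 ± 0.28 for Per1 and -0.01 ± 0.25 for Per3, with adjusted p-values of 0.631, 0.63, 0.85 and 0.987 (limma). The lowest unadjusted p was 0.0192, for Nr1d2. In this comparison 0.0403% of probe sets passed, which is 3 of 7453. The size of the Nr1d2 value rested on the muscle-rich vehicle array, and it was -0.37 ± 0.14 without it, with a smaller standard error, an unadjusted p of 0.0194 and an adjusted p of 0.999 (limma), where 0.0537% of probe sets passed. Without that array the values of Per1 and Per3 had the opposite sign, 0.16 and 0.25. Without the female 12 h array the values were -0.46 for Nr1d1, -0.98 for Nr1d2, -0.11 for Per1 and -0.058 for Per3. Androgen and glucocorticoid responsive genes were measured on the same arrays as a reference. Their list was chosen with earlier results of these data known, so it is no independent check of a DHT response. Leaving out Per1, which this list also holds, 3 of 10 tested probe sets of 8 such genes passed with a rise. They are the 3 that passed of the 7453, and the rise is in the mean of the 6 times, not at each time. Fkbp5, a cochaperone of steroid receptors that these receptors induce, rose by 1.38 ± 0.18 (adjusted p = 0.017, limma).

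Time by time, none of the 4 genes passed against vehicle (2 arrays against 4). Of all probe sets, 0.0134% passed at 3 h and 0.0403% at each of 6 and 12 h, and no probe set passed at 1, 18 or 24 h (181, 386 and 196 had an unadjusted p under 0.05, limma). Without the muscle-rich array the shares were 0.0134% at 3 and 24 h, 0.0537% at 6 h, 0.0403% at 12 h and 0.0268% at 18 h. Nr1d1 was lower than vehicle by more at the early than at the late times, with -0.85 ± 0.39 at 1 h, -0.35 at 3 h, -0.81 at 6 h, -0.30 at 12 h, 0.03 at 18 h and 0.07 at 24 h. Its unadjusted p was 0.0491 at 1 h (adjusted 0.964, limma). Over the alternative settings given below, left-out single arrays aside, Nr1d1 ranged from -0.91 to -0.28 at 1 h and from -0.83 to -0.52 at 6 h. The mean control probe set level was 6.30 on the 1 h arrays and 7.08 on the vehicle arrays. Nr1d2 had its lowest values at 12 h (-1.41 ± 0.53, unadjusted p = 0.0213) and 18 h (-1.27 ± 0.53, unadjusted p = 0.0337), and limma's adjusted p-values were 0.937 and 0.698. Both were smaller without the muscle-rich array, at -0.82 ± 0.19 and -0.69 ± 0.19, while the unadjusted p fell to 0.00119 and 0.00411 and the adjusted p was 0.403 and 0.608 (limma). Without the pancreas-rich female array the 12 h values were -1.57 for Nr1d2, -0.83 for Nr1d1 and -0.12 for Per3. Per1 was highest at 1 h (0.43 ± 0.43) and had -0.52 at 3 h and -0.49 at 12 h. Per3 lay between -0.32 (6 h) and 0.19 (18 h). At 24 h, the DHT time whose vehicle carries the same label, the changes were 0.07 for Nr1d1, -0.70 for Nr1d2, 0.01 for Per1 and -0.07 for Per3, and Nr1d2 was at -0.12 without the muscle-rich array.

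**Figure D3:**
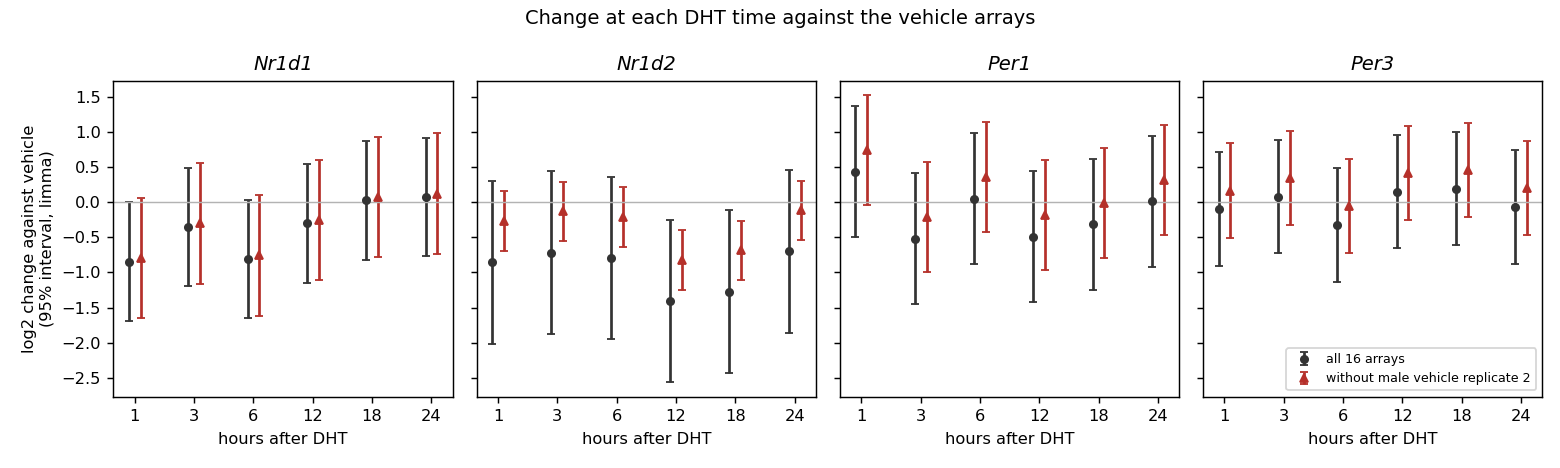
Log2 change of each gene at each DHT time against the vehicle arrays, with 95% limma intervals, for all 16 arrays (circles) and without the second male vehicle array (triangles). For Nr1d2 the values lie between -1.41 and -0.70 with all arrays and between -0.82 and -0.12 without that array; 12 and 18 h are lowest in both.

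Differences among the DHT times do not use the vehicle arrays as a base. Hours after DHT run together with any clock time, so a time course after DHT and clock phase cannot be told apart by these tests. By the moderated F test over the 6 times the unadjusted p-values were 0.244 for Nr1d1, 0.774 for Nr1d2, 0.398 for Per1 and 0.835 for Per3. No probe set of the 7453 passed this test in limma, and 84 of them (1.13%) had an unadjusted p under 0.05. Without the muscle-rich array, which enters through the spread and the sex effect, Nr1d2 had an unadjusted p of 0.0209 (adjusted 0.976), and 3 probe sets passed (0.0403%). A curve with a period of 24 h was then fitted to the 12 DHT arrays, which do not include the muscle-rich array. It passed for no probe set, while 572 of 7453 (7.67%) had an unadjusted p under 0.05. Nr1d2 was the 12th by p, with 0.00104 (adjusted 0.603, limma), an amplitude of 0.37 on the log2 scale and a peak at 2.47 h after injection. This corresponds to 1.66-fold between peak and trough. The other amplitudes were 0.40 for Nr1d1 (peak at 18.4 h), 0.26 for Per1 (0.73 h) and 0.19 for Per3 (17.0 h). Their adjusted p-values were 0.654, 0.677 and 0.769 (limma). With the control probe set level as a covariate the amplitude of Nr1d1 was 0.17 and that of Nr1d2 0.38. Without the female 12 h array the amplitude of Nr1d2 was 0.35 (adjusted p = 0.862, limma). Of the 27 probe sets of other clock genes, 94935_at of Tbl1x was the one with an unadjusted p under 0.05, and its adjusted p was 0.603 (limma). Their median amplitude was 0.147 against 0.154 for all probe sets. Arntl had an amplitude of 0.06 and Clock of 0.15. Fkbp5, which rose with DHT, had an amplitude of 0.82 in the same fit (unadjusted p = 0.000895, adjusted 0.603, limma).

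The order of the times differed between the genes. Each gap between neighbouring times sets 2 arrays against 2, and the times were ordered by these same values. The share of gaps free of overlap over all probe sets was not computed. For Nr1d2 both 12 and 18 h lay below the other times in each sex. After removal of the sex means the gap from 18 h up to 1 h (0.42) was free of overlap, as was the smaller gap from 12 to 18 h (0.13). The 4 remaining times, 1, 6, 3 and 24 h in rising order, overlapped with their neighbours. For Per1 the rising order was 3, 12, 18, 24, 6 and 1 h, with gaps free of overlap between 18 and 24 h (0.33) and between 6 and 1 h (0.38). For Nr1d1, from 1, 6, 3, 12 and 18 to 24 h, and for Per3, from 6, 1, 24, 3 and 12 to 18 h, all neighbouring times overlapped.

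Male and female arrays at the same hour are the one repeat of a time in the design. Across the 6 times the log2 signals of males and females correlated with r = 0.93 for Nr1d2 (exact two-sided permutation p = 0.0264 over 720 pairings, adjusted over 4 genes 0.106; Spearman's rho 0.60, p = 0.242). For Nr1d2 this rested on 12 and 18 h, since r without those times was -0.42. Per1 had r = 0.71 (exact permutation p = 0.111, adjusted 0.222; rho 0.77, p = 0.103), which was 0.99 without the 1 and 3 h arrays. Nr1d1 had r = 0.18 (exact permutation p = 0.713; rho 0.03, p = 1.0) and -0.26 without 1 and 24 h. Per3 had r = -0.36 (exact permutation p = 0.481; rho -0.77, p = 0.103) and -0.97 without 3 and 6 h. No gene passed after adjustment.

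**Figure D4:**
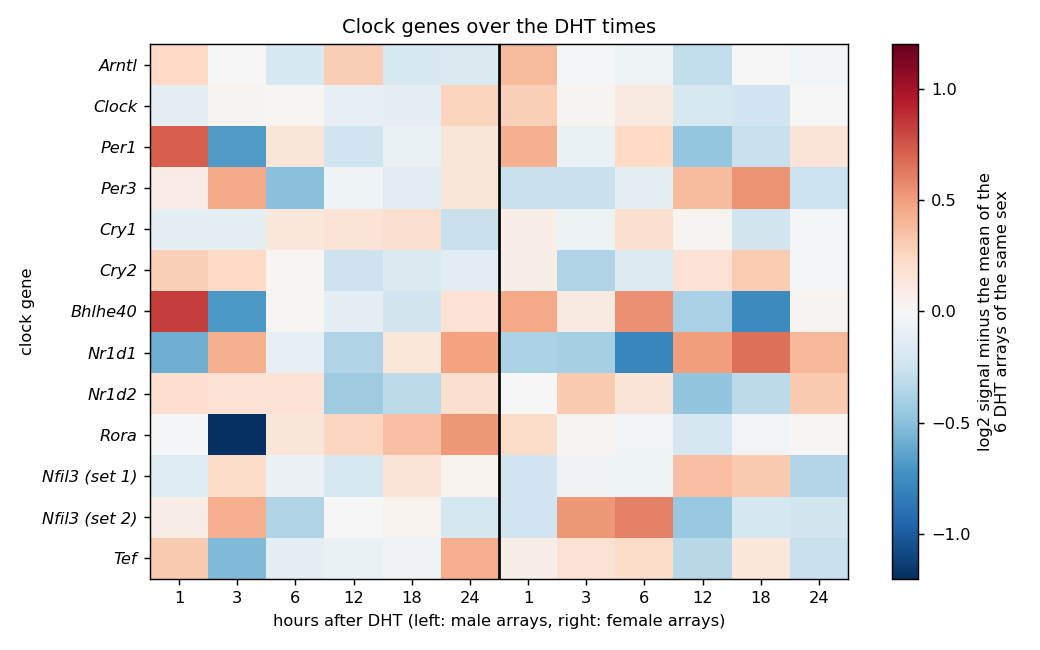
Log2 signal of each tested core clock, second loop and Tef probe set on the 12 DHT arrays, minus the mean of the 6 arrays of the same sex; columns are hours after DHT, males left and females right of the black line, red higher and blue lower. Nr1d2 is blue at 12 and 18 h in both sexes; Nr1d1 is blue at 1, 3 and 6 h and red at 12, 18 and 24 h in females, and in males it is blue at 1, 6 and 12 h.

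The late times (12, 18 and 24 h) were also set against the early times (1, 3 and 6 h). Nr1d1 was higher at the late times by 0.60 ± 0.26 (unadjusted p = 0.0381), which did not pass (adjusted p = 1.0, limma), and 195 of 7453 probe sets (2.62%) had an unadjusted p under 0.05. In females the early arrays had 351 to 469 and the late arrays 812 to 976, without overlap. The share of all probe sets that separate early from late female arrays is not given here. In males the early arrays had 938 to 1906 and the late arrays 1093 to 1983, which overlap almost entirely. Without the muscle-rich array 0.0268% of probe sets passed, and the adjusted p of Nr1d1 was 0.698 (limma). Without the female 12 h array its difference was 0.43. The values for the other genes were -0.34 ± 0.35 for Nr1d2, -0.25 ± 0.28 for Per1 and 0.21 ± 0.25 for Per3. The Nr1d2 difference was -0.34 ± 0.12 without the muscle-rich array, with an unadjusted p of 0.0171, below that of Nr1d1 (0.0314), and an adjusted p of 0.621 (limma).

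The control probe set level moved with Nr1d1 on these arrays, a relation that was looked at after the values were seen. The level was 6.62 ± 0.61 (SD, n = 6) on the early and 7.38 ± 0.31 (n = 6) on the late DHT arrays. Female arrays fell into separate groups of 4 by this level, too few for a correlation within either, so their values are given by group; the 8 relations over which p-values are adjusted include the 4 in females. The 4 with a level of 6.66 or less, namely 1, 3 and 6 h and the second vehicle array, had Nr1d1 signals of 351 to 469. The 4 with 7.32 or more, namely 12, 18 and 24 h and the first vehicle array, had 812 to 1141. In males r was 0.58 over 8 arrays (exact permutation p = 0.13, adjusted over 8 relations 0.259; rho 0.38, p = 0.36) and -0.07 without the 2 arrays farthest from the median level. Over the 7 male arrays without the muscle-rich one r was 0.83 (exact permutation p = 0.00337, adjusted over 4 relations 0.0135; rho 0.82, p = 0.0341) and 0.91 without the 2 farthest. With the level as a covariate the late minus early difference of Nr1d1 was 0.05 ± 0.24. For Per1 in males r was -0.81 (exact permutation p = 0.0151, adjusted 0.0603; rho -0.79, p = 0.0279), and -0.82 without the 2 farthest arrays. The 2 female vehicle arrays, 2.45-fold apart in Nr1d1, had levels of 7.58 and 6.66.

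**Figure D5:**
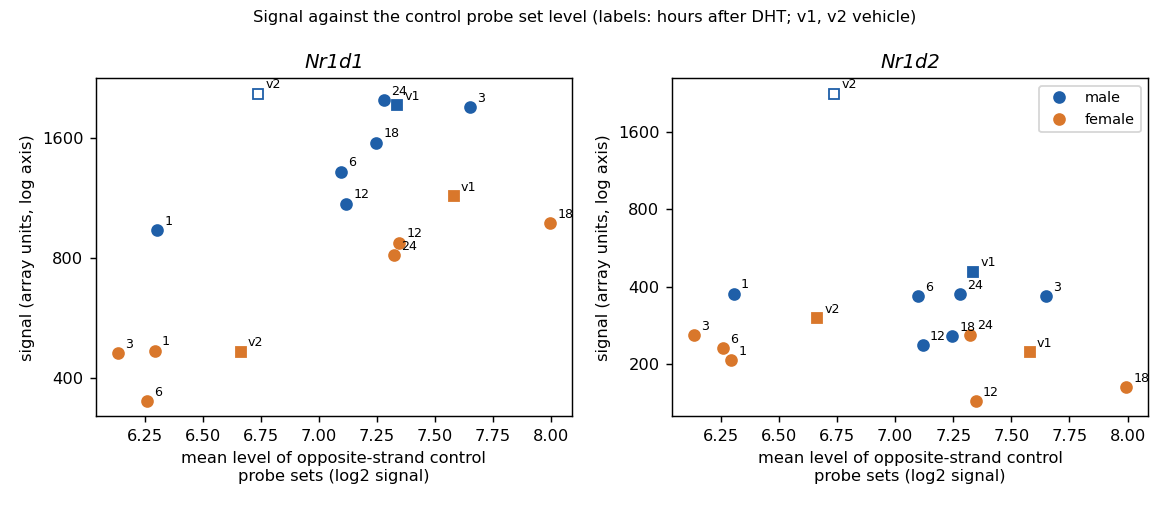
Signal of Nr1d1 and Nr1d2 (log axes) against the mean log2 level of 15 opposite-strand control probe sets on each array; circles are DHT arrays labelled with hours, squares vehicle arrays, and the open square is the muscle-rich array. Among females the 4 arrays with levels up to 6.66 have Nr1d1 signals of 351 to 469 and the 4 from 7.32 upward have 812 to 1141; Nr1d2 shows no such step.

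The response to DHT was compared between the sexes in a model with a sex by DHT term, and no probe set passed with 16 arrays in limma (6.25% had an unadjusted p under 0.05). The female minus male difference in response was 0.25 ± 0.53 for Nr1d1, 1.29 ± 0.62 for Nr1d2 (adjusted p = 0.611), -0.35 ± 0.58 for Per1 and 0.21 ± 0.51 for Per3. The Nr1d2 value was decided by which male vehicle array was kept. It was 0.16 ± 0.30 without the muscle-rich array. It was 2.42 when the muscle-rich array was the sole male vehicle array, whose spread was then taken to be that of the other groups. Per1 was at -1.32 ± 0.38 without the muscle-rich array (unadjusted p = 0.00571, adjusted 0.999, limma), where the remaining male vehicle signal of 103 was the lowest of the 16.

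All 4 genes had their highest signal of the 16 arrays on the muscle-rich vehicle array. Against the mean of the other 7 male arrays it was 1.35-fold for Nr1d1, 6.45-fold for Nr1d2, 2.04-fold for Per1 and 1.80-fold for Per3. Of 26 genes, the clock genes on the array together with Thra, 12 were highest there and 3 lowest. The share of all probe sets that were highest or lowest on this array was not computed. These counts are therefore a description of the array and not a result about clock genes. Rora (8.45-fold), Dbp (7.28-fold), Usp2 (6.91-fold), Bhlhe40 (5.53-fold) and Tef (3.35-fold) were among the highest, and Clock, Npas2 and Nfil3 (101805_f_at) were the lowest. On the first male vehicle array the signals were 458 for Nr1d2, 103 for Per1 and 159 for Per3.

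The tested probe sets with a single gene symbol whose pattern was most like each gene were listed by Pearson's r over the 12 DHT arrays after subtraction of the sex means. Probe sets with no or several symbols, 1 of which stood above Cdk14 for Per1, are left out. These values are descriptions, and the arrays share their hybridisation and the control probe set level. For Nr1d1 they were Csnk2a1 (0.94), Actb (0.94), Coro1b (0.94), Sdc4 (0.94) and Kdelr2 (0.93), and these 5 genes had r of 0.82 to 0.97 with the control level, against 0.91 for Nr1d1 itself. The least alike were Timm23, Uba3 and Rab2a, with -0.94 to -0.93. None of these is a gene of the clock lists. For Nr1d2 the most alike were Rhoc (0.96), Aamp (0.95), Bpnt2 (0.91), Tcap (0.91) and Susd6 (0.87), and the least alike were Ciao1, Asic2 and Cryab (-0.91 to -0.88). Per1 was most like Cdk14 (0.92), Slc38a2 (0.91), Bhlhe40 (0.91), Pkn2 (0.91) and Dnajb1 (0.90) and least like Lgals4, Ndufa3 and Ap2a2 (-0.94 to -0.89). Bhlhe40, a repressor of CLOCK and BMAL1 like Per1, was the one clock gene among these. Its r with the control level was -0.88, and that of Per1 was -0.68. Per3 was most like Krt17 (0.95), St8sia2 (0.95), Purb (0.94), Bmp4 (0.93) and Slc23a3 (0.93) and least like Rnf13, Mrps28 and Cnot7 (-0.97 to -0.93). Between members r was -0.26 for Nr1d1 and Nr1d2, -0.59 for Nr1d1 and Per1, 0.57 for Nr1d1 and Per3, 0.46 for Nr1d2 and Per1, -0.41 for Nr1d2 and Per3, and -0.54 for Per1 and Per3. With the control level, r was -0.43 for Nr1d2 and 0.60 for Per3. Over the same arrays, 0.684% of the 7453 probe sets had an absolute r with that level at least as large as Nr1d1. This share was 16.6% for Per1, 26.0% for Per3 and 47.5% for Nr1d2. The part of that level in the values between members was not tested. With Arntl, r was -0.52 for Nr1d1 (rank 6060 of 7453 from the most alike) and 0.04 for Nr1d2.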

How the data were processed

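Signals of 16 Affymetrix arrays were deposited as linear intensity values, 1 per probe set. The submitters' processing notes name MAS5 without a version. Each array has the same trimmed mean of 500, so levels are relative to the whole array. Of 12488 probe sets 66 are controls. The platform annotation listed 11251, 10855 with 1 symbol and 396 with several, and 1237 are unnamed here. Probe sets at or above the 40th percentile of mean log2 signal (a signal of 116.03) were tested, 7453 in all. limma 3.58.1 in R 4.3.3 was fitted to log2(signal + 16), which understates changes of low signals, with sex and time as additive factors (8 residual degrees of freedom), eBayes with trend, two-sided tests and Benjamini-Hochberg adjustment over the 7453 at 0.05. The 24 h curve used the 12 DHT arrays with sex, cosine and sine. Scripts were tested on simulated data. The number of arrays limits the precision. Replicates were numbered in accession order. Described by rule were all probe sets of the members, tested genes of the core clock lists and any clock gene that passed, the 5 most and 3 least alike genes, neighbouring genes and steroid response genes. Gadd45g, Mt2 and others of the steroid list are given as counts. The 28 alternative settings cover the pseudocount, filter, normalization, probe set choice, eBayes, covariates and left-out arrays; the 3' to 5' covariate, and the control level covariate without the second male vehicle array, were added after seeing the data. The members, lists and tests were chosen with earlier results of these data known.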

Additional observations from a re-analysis of the deposited data

Results flagged for a closer look

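Nr1d2 had a signal of 2252 on the second male vehicle array, far above the other 3 vehicle arrays (223 to 458), with a gap of 88.4% of the group's range. The same signal of 2252 stood as far above the other 7 male arrays (238 to 458), with a gap of 89.1% of the range. These are 2 cases in 20 combinations of gene and group that were looked at, and chance gives about 1 in 20. Both cases are the same signal in groups that overlap, so their number cannot be set against that rate. The second male vehicle array is the one rich in skeletal muscle transcripts, and their part in the signal was not tested.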

How the results depend on the processing

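Nr1d1 passed between the sexes under all 25 alternatives, with differences of -1.38 to -1.11 and adjusted p of 0.0022 to 0.0251 (limma). Of 1252 comparisons of member values with alternatives, 1197 kept direction and side of the threshold, 3 newly passed and 52 changed direction; those 52 belong to 22 results, none of which passed on all 16 arrays, and the cause was not tested. The number of the 4 genes called between the sexes was 1 to 2 with 1 array left out (2 without the second male vehicle array), and 0 to 1 for the sex by DHT term (1 without the first male vehicle array). For the shared profile of males and females it was 1 with quantile normalization, where Nr1d2 had r = 0.948 (exact permutation, adjusted p = 0.0444). Direction changed with the control probe set level as covariate for Per1 at 1 h (-0.0097) and 6 h (-0.18), Nr1d1 at 18 h (-0.37) and 24 h (-0.091), and late against early for Nr1d2 (0.075) and Per1 (0.18). It changed with the 3' to 5' covariate for Nr1d1 at 18 h (-0.016), with a pseudocount of 64 for Per1 at 24 h (-0.016), and with quantile normalization for Per1 at 24 h (-0.013) and for Per1 (-0.0078) and Per3 (-0.059) between the sexes. With 1 array left out, the changes against vehicle ranged for Nr1d1 from -0.79 to 0.082 at 3 h, -0.83 to 0.23 at 12 h, -0.31 to 0.36 at 18 h and -0.19 to 0.27 at 24 h. For Per1 they ranged from -0.35 to 0.35 at 6 h, -0.39 to 0.31 at 24 h and -0.54 to 0.16 over all times. For Per3 they ranged from -0.31 to 0.16 at 1 h, -0.30 to 0.46 at 3 h, -0.12 to 0.42 at 12 h, -0.22 to 0.60 at 18 h, -0.28 to 0.20 at 24 h and -0.22 to 0.25 over all times. Between the sexes the ranges were -0.11 to 0.24 for Per1, -0.082 to 0.15 for Per3 and -1.06 to -0.65 for Nr1d2. For the sex by DHT term they were -0.39 to 0.88 for Nr1d1, 0.16 to 2.42 for Nr1d2, -1.32 to 0.61 for Per1 and -0.44 to 0.86 for Per3. The shared profile of Nr1d1 ranged from r = -0.040 to 0.43. No paired analysis was possible because the replicate numbers follow accession order and most groups hold 1 array.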
